A study of Saccharomyces cerevisiae with 68 samples.

Results

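The mitochondrial ribosomal protein genes of Saccharomyces cerevisiae were followed through a set of strains that lack subunits of SAGA, a coactivator of RNA polymerase II. They were chosen by name alone, as the genes whose symbol is MRP, MRPL, MRPS or RSM followed by a number, and 66 of the 5449 S. cerevisiae genes on the arrays qualified. By their annotated roles 27 encode proteins of the small mitochondrial subunit and 37 proteins of the large one. The remaining members are RSM22, a methyltransferase-like protein associated with the mitochondrial ribosome, and MRP8, which was named a mitochondrial ribosomal protein from its sequence and is not counted among the ribosome's components. Of 67 RefSeq genes whose symbols fit the pattern, MRP35 had no probe set under that symbol and was not analysed here.

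The tested strains lacked SPT20 (here spt20), SPT7 (spt7), UBP8 (ubp8), GCN5 (gcn5), SPT3 (spt3), SPT8 (spt8), both UBP8 and GCN5 (ubp8_gcn5) or both SPT3 and GCN5 (spt3_gcn5), and each was set against wild type (WT). All were made in the parental strain FY406, and every culture, WT included, grew in rich YPD medium and was given 5 mM 4-thiouracil for 6 min. The uracil analogue marks RNA made during that time, so purified labelled RNA is nascent RNA, and the unpurified RNA of the same extraction is total RNA. In nascent RNA 4 arrays each of spt20, ubp8, gcn5 and ubp8_gcn5, 2 each of spt3, spt8 and spt3_gcn5, and 6 of WT were used. In total RNA there were 2 arrays of spt20, 4 each of spt7, ubp8, gcn5 and ubp8_gcn5, 2 each of spt3, spt8 and spt3_gcn5, and 6 of WT. The labels speak of 2 independent biological replicates of each deletion strain, so where 4 arrays exist the p-values may in part measure technical spread.

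Mitochondrial ribosomes make a small set of hydrophobic subunits of the respiratory chain and of ATP synthase inside the organelle. Their RNA is encoded in mitochondrial DNA, while nearly all of their proteins are encoded in the nucleus, made in the cytosol and imported, so the genes followed here are transcribed by RNA polymerase II. SAGA brings the acetyltransferase Gcn5 and the deubiquitinase Ubp8 to chromatin and contacts the TATA-binding protein through Spt3 and Spt8, and Spt20 and Spt7 hold the complex together.

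Levels are relative log2 signals, that is the log2 signal of a gene minus the median of all S. cerevisiae genes on that array, so a change of the whole transcriptome is taken out. Changes are differences of these levels, mutant minus WT, given with the standard error (SE) of the limma fit. A gene is called changed where the adjusted p, over 4086 tested genes, was below 0.05; all 66 members were bright enough to be tested in every fit. The deleted gene was lower on every mutant array than on every WT array in all 19 pairs of strain and fraction that could be checked. Arrays WT 1 and WT 2, spt7 nascent RNA and spt20 total arrays 1 and 3 were left out. WT arrays 7 and 8 and both spt3_gcn5 arrays stand apart in the profile of the S. pombe spike-in, with rank correlations of at most 0.792 with the other nascent arrays and at most 0.879 with the other total arrays. Counts are therefore given against all 6 WT arrays and again with this class as a block, which sets spt3_gcn5 against WT 7 and 8 and every other strain against WT 3 to 6. The same WT arrays serve all comparisons of a fraction. Members named below as rising or falling furthest are, among those called, the ones whose mutant arrays all lay outside the range of the WT arrays. Their separation from WT is thus the rule of choice and not a result. In total RNA of spt20, spt7, ubp8_gcn5 and spt3_gcn5, 28, 13, 10 and 25 of the 66 members lay below every WT array. Of all tested genes 27.4%, 18.4%, 16.6% and 22.8% did. In nascent spt20, ubp8_gcn5 and spt3_gcn5, 17, 20 and 13 members did, and 13.7%, 16.1% and 18.7% of tested genes. The nascent ubp8_gcn5 values here are as deposited, divided by 1 of 2 constants described with the ubp8_gcn5 results. Of the members 86.4% had the larger constant, against 63.6% of tested genes. This count is not given with the constants undone. Some called members with overlapping arrays changed by more than the named ones, and examples of these are given too.

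The members' median level was above 0, the median of all genes, on every array, and among the mutants it was lowest in spt20, ubp8_gcn5 and spt3_gcn5. Single members such as RSM22 and MRPS35 lay below 0, and levels of different probe sets are only roughly comparable. In nascent RNA the members' median was 0.69, 0.64, 0.85 and 0.54 on the 4 spt20 arrays, against 0.48, 0.98 and 1.37 as the lowest, median and highest of the 6 WT arrays. It was 0.46, 0.51, 0.51 and 0.44 on the 4 ubp8_gcn5 arrays as deposited, and 0.71, 0.77, 0.78 and 0.72 with a pair of dividing constants in these values undone, as described with the ubp8_gcn5 results. All of these lay below the 4 WT arrays numbered 3 to 6, which ran between 0.92 and 1.37. The deposited ubp8_gcn5 values overlapped with WT 7 and 8, at 0.48 and 0.54, and the undone ones lay above them. The single mutants ubp8 (1.03 to 1.16), gcn5 (0.84 to 1.04), spt3 (0.97 and 1.00) and spt8 (1.10 and 1.04) had nascent medians close to or within the range of WT 3 to 6. In total RNA the median was 0.58 on both spt20 arrays, 0.86 to 0.96 on the spt7 arrays and 0.76 to 0.92 on the ubp8_gcn5 arrays, against 0.98 to 1.31 on WT 3 to 6 and 0.48 on each of WT 7 and 8. The spt3_gcn5 arrays, with 0.79 and 0.61 in nascent and 0.55 and 0.45 in total RNA, lay below all of WT 3 to 6, and in total RNA on either side of WT 7 and 8.

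**Figure D1:**
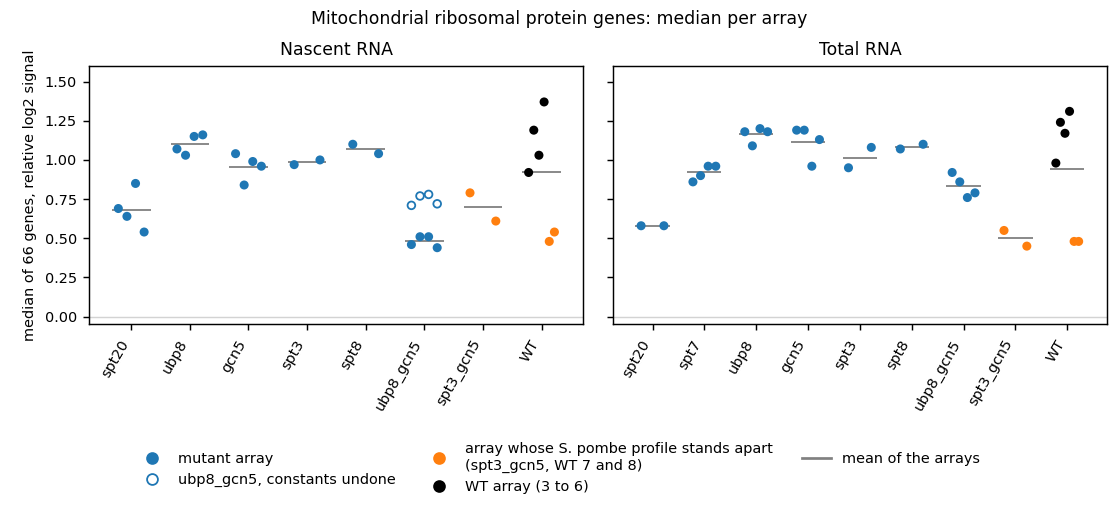
Median relative log2 signal of the 66 genes (vertical axis) on every array, by strain, in nascent (left) and total RNA (right); points are arrays (orange for spt3_gcn5 and WT 7 and 8), lines group means, open points ubp8_gcn5 with the dividing constants of its deposited nascent values undone. The spt20 arrays sit between 0.54 and 0.85 in nascent RNA and at 0.58 in total RNA, and WT arrays 7 and 8 sit near 0.5, apart from WT 3 to 6.

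In spt20 more of the members than of all tested genes fell, in both fractions. In nascent RNA 29 of the 66 members fell and 1 rose, where 25% of all tested genes fell and 20.5% rose; the members' median change was −0.26, against 0.02 for all tested genes. In total RNA 33 fell and 1 rose, where 28.1% of tested genes fell and 17.3% rose, with a median change of −0.33 against −0.07. With the class as a block 40 members fell in nascent RNA (26.3% of tested genes) and 57 in total RNA (37.5%), with median changes of −0.38 and −0.53. Both subunits took part: 13 of 27 small-subunit and 15 of 37 large-subunit members fell in nascent RNA, and 12 and 20 in total RNA. The fall in total RNA rests on 2 arrays, spt20 total 2 and 4. The labels do not say whether these come from separate cultures, so their spread may be technical. With spt20 total arrays 1 and 3 kept in, 7 members fell and 3 rose, and the share of tested genes in that fit is not given. With consecutive arrays averaged, 17 fell in nascent and 27 in total RNA, where the 2 spt20 arrays were not joined with each other. The share of tested genes in those averaged fits is not given. With only spt20 and WT in the fit 18 and 11 fell, where 23.9% and 12.1% of tested genes were called.

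The largest nascent falls in spt20 were those of MRPS35, MRP4, MRPL3 and MRPS9. MRPS35, a mitochondria-specific small-subunit protein, had −1.33, −1.41, −1.31 and −0.78 on the spt20 arrays, against −0.49, −0.14 and −0.11 as the lowest, median and highest WT array. All spt20 arrays lay below all WT arrays, and the change was −0.99 ± 0.14 (SE; limma, adjusted p = 5.21e-06). MRP4, a small-subunit protein with a bacterial counterpart, had −1.21, −1.09, −1.16 and −0.76 in spt20, against −0.65, −0.23 and 0.64 in WT, a change of −0.95 ± 0.18. Its WT range is wide because arrays 7 and 8, at 0.43 and 0.64, lie above the other 4, and against WT 3 to 6 the change was −0.63. MRPL3, a large-subunit protein with a fold like that of RNase III, changed by −0.85 ± 0.13. MRPS9, a small-subunit protein with a bacterial counterpart, had 0.49, 0.50, 0.32 and 0.48 in spt20, against 1.12, 1.28 and 1.39 in WT. The gap between these groups was several times their spread, and the change was −0.83 ± 0.08 (adjusted p = 3.39e-08).

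In spt20 total RNA the largest falls were those of MRPS28, MRP4, MRPS9 and RSM26, all of the small subunit. MRPS28, with a bacterial counterpart, had −0.11 and −0.13 on the spt20 arrays, against 0.51, 0.78 and 0.98 in WT, a change of −0.89 ± 0.09 (adjusted p = 1.35e-08). MRPS9 had 0.57 and 0.62, against 1.30, 1.42 and 1.63, a change of −0.84 ± 0.08. RSM26, a mitochondria-specific protein related in sequence to manganese superoxide dismutases, had 0.57 and 0.55, against 0.82, 1.5 and 1.80, a change of −0.82 ± 0.18. For RSM26 the lowest WT values are those of arrays 7 and 8, and against WT 3 to 6 the change was −1.09. MRP4 changed by −0.84 ± 0.17, or −0.57 with the class as a block. The 1 member that rose in each fraction was MRP8, by 0.51 ± 0.11 in nascent and 0.32 ± 0.09 in total RNA.

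In spt7, measured in total RNA, the share of members that fell was close to that of all genes. Here 20 members fell (30.3%) and 6 rose, where 28.5% of tested genes fell and 18.9% rose, with a median change of −0.08 against −0.04. Against WT 3 to 6, 43 members fell (65.2%, where 38.6% of tested genes fell) and 3 rose, with a median of −0.30 against −0.07. RSM26 fell furthest, with 0.62, 0.61, 0.73 and 0.62 on the spt7 arrays, against 0.82, 1.5 and 1.80 in WT, a change of −0.73 ± 0.14 (adjusted p = 0.00018). MRPS28, with 0.11, 0.01, 0.05 and 0.02 against 0.51, 0.78 and 0.98, changed by −0.73 ± 0.07. MRPL17, a mitochondria-specific large-subunit protein, changed by −0.70 ± 0.08, and MRPL36, a large-subunit protein with a bacterial counterpart, by −0.54 ± 0.09. The spt7 arrays of these genes lay below every WT array. RSM23 rose by 0.38 ± 0.06; it is the counterpart of the GTP-binding protein DAP3 of mammals, and had −0.07, −0.10, 0.01 and 0.01 in spt7, against −0.54, −0.44 and −0.23 in WT. RSM27, a mitochondria-specific small-subunit protein, rose by 0.56 ± 0.18, or by 0.20 against WT 3 to 6. RSM19 (0.70 ± 0.24), MRP10 (0.68 ± 0.27) and MRPL44 (0.60 ± 0.24) were called higher too, with arrays that overlapped with WT. Their spt7 arrays ran from 0.99 to 1.20, 2.01 to 2.34 and 1.35 to 1.45. The means of WT 3 to 6 were close to these, at 0.88, 2.04 and 1.30. Those of WT 7 and 8 were −0.53, 0.34 and −0.18. With consecutive arrays averaged 13 members fell and 1 rose (25.6% of tested genes were called), with only spt7 and WT in the fit 12 fell and 1 rose (27.2%), and with quantile normalization 17 fell and 9 rose (48.1%).

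In total RNA of ubp8_gcn5, too, the share of members that fell was close to that of all genes when all WT arrays were used. There were 19 falls (28.8%) and 3 rises, where 26.8% of tested genes fell and 18.2% rose, with a median change of −0.10 against −0.05. Against WT 3 to 6, 45 members fell (68.2%, where 36% of tested genes fell), with a median of −0.31 against −0.06. The members that fell furthest were all of the large subunit. MRPL36 had 1.15, 1.30, 1.36 and 1.43 on the ubp8_gcn5 arrays, against 1.79, 2.02 and 2.38 in WT, a change of −0.74 ± 0.09 (adjusted p = 2.37e-07). MRPL20, mitochondria-specific, had 0.42, 0.79, 0.88 and 0.62, against 0.98, 1.46 and 1.68, a change of −0.73 ± 0.14. MRPL13 and MRPL17, also mitochondria-specific, changed by −0.59 ± 0.09 and −0.58 ± 0.08. All ubp8_gcn5 arrays of these 4 genes lay below every WT array, while MRPL31 fell by 0.59 on the log2 scale with overlapping arrays. MRP8 rose by 0.29 ± 0.07 and MRPL35, a mitochondria-specific large-subunit protein, by 0.28 ± 0.08. With consecutive arrays averaged 9 members fell and 2 rose (22.4% of tested genes were called), with only ubp8_gcn5 and WT in the fit 8 fell and 1 rose (23.4%), and with quantile normalization 16 fell and 8 rose (46.7%).

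The double mutant could also be set against its single mutants in total RNA, and these differences contain no WT value, although the WT arrays enter the fit's estimate of the spread. Against ubp8, 24 members were lower in ubp8_gcn5 and none was higher, where 13.3% of tested genes were lower and 9.4% higher. Against gcn5, 18 members were lower and none was higher, where 7.49% of tested genes were lower and 5.73% higher. At an unadjusted p below 0.05 in the same limma fit, 29 and 31 members were lower and still none was higher. The members' median difference was −0.28 from ubp8 and −0.27 from gcn5, against −0.05 for all tested genes in both. MRPL20 had 0.42, 0.79, 0.88 and 0.62 on the ubp8_gcn5 arrays, against 1.25, 1.55, 1.44 and 1.74 on the ubp8 arrays and 1.61, 1.32, 1.23 and 1.11 on the gcn5 arrays. The double mutant's arrays did not overlap with those of either single mutant, and the differences were −0.82 ± 0.15 and −0.64 ± 0.15.

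MRPL31, a mitochondria-specific large-subunit protein, had 0.77, 0.65, 0.55 and 0.77 in ubp8_gcn5, against 1.65, 1.39, 1.47 and 1.44 in ubp8, a difference of −0.80 ± 0.16. RSM25, a mitochondria-specific small-subunit protein, had −0.58, −0.83, −0.66 and −0.60 in ubp8_gcn5, against 0.08, 0.06, 0.01 and −0.10 in gcn5, a difference of −0.68 ± 0.11. Both were separate from the single mutant on every array. The counts depend on how the spread is estimated: 44 and 46 members were lower (1 was higher, against ubp8) when the compared groups were fitted alone, 42 and 47 with the class as a block, and 7 and 0 with consecutive arrays averaged, where 52.6% and 36.8%, 47.0% and 37.7%, and 6.68% and 1.37% of tested genes were called. In the averaged limma fit 18 and 18 members were lower at an unadjusted p below 0.05.

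The nascent values of ubp8_gcn5 carry a feature of the deposited table. The S. cerevisiae signals on these 4 arrays had been divided by 1 of 2 constants, 1.85 or 2.4975, which differ by 0.433 on the log2 scale, and 57 of the 66 members (86.4%) had been divided by the larger one, against 63.6% of tested genes. As deposited, 35 members fell and 3 rose, where 29.9% of tested genes fell and 12.6% rose, with a median change of −0.37 against −0.15. All 35 falls were among the 57 members with the larger constant, and none of the 9 others fell. With the constants undone 11 members fell (16.7%) and 2 rose, where 17.6% of tested genes fell and 11.5% rose, with a median change of −0.14; with the class as a block as well, 33 fell (50.0%, where 28.1% of tested genes fell) with a median of −0.27. With consecutive arrays averaged, and the constants kept, 17 fell, and with only ubp8_gcn5 and WT in the fit 19 fell. The share of tested genes in these fits is not given, so these counts are not set against it.

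MRPL36 was the member that fell furthest in nascent ubp8_gcn5, with 1.17, 1.13, 1.06 and 0.93, against 1.64, 2.16 and 2.29 in WT, a change of −0.96 ± 0.13 as deposited. With the constants undone its 4 values were 1.43, 1.39, 1.33 and 1.20, still below every WT array, and the change was −0.70 ± 0.13 (adjusted p = 0.000233). MRPL11, the large-subunit counterpart of the bacterial stalk-base protein, changed by −0.86 ± 0.12 as deposited and −0.59 undone. MRPL31 changed by −0.85 ± 0.19 and −0.59, and MRPL8, a large-subunit protein with a bacterial counterpart, by −0.81 ± 0.11 and −0.55; both falls remained past the threshold when the constants were undone. The rise of RSM23, 0.35 ± 0.10 as deposited, was 0.18 undone and no longer past the threshold. RSM23, RSM22 and MRPL40, the 3 members that rose as deposited, are among the 9 with the smaller constant.

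**Figure D2:**
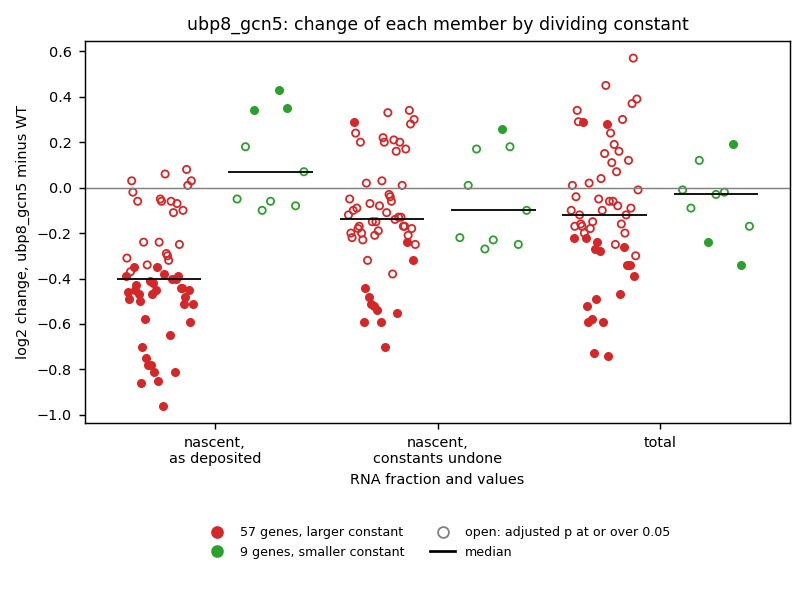
Log2 change, ubp8_gcn5 minus WT (vertical axis), of each of the 66 genes in nascent RNA as deposited and with the dividing constants undone, and in total RNA; red points are the 57 genes with the larger constant and green points the 9 with the smaller one, filled where adjusted p was below 0.05, and lines are medians. The median of the 57 genes is −0.40 as deposited and −0.14 undone.

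In spt3_gcn5 the result depended on which WT arrays served as the reference. Against all 6 WT arrays 19 members fell and 10 rose in nascent RNA, where 24.6% of tested genes fell and 20.9% rose, and 31 fell and 5 rose in total RNA, where 59.0% of tested genes were called, 30.4% as falls and 28.6% as rises. Against WT 7 and 8, the arrays of the same class, 2 fell and 13 rose in nascent RNA (15.5% of tested genes fell and 20.1% rose), and 19 fell and 16 rose in total RNA (29.3% and 27.4%). The members' median change was −0.23 in nascent and −0.31 in total RNA against all WT arrays, and −0.03 and −0.09 within the class. Leaving out spt3_gcn5 nascent array 1 left 11 falls and 4 rises, and leaving out array 2 left 5 falls and 7 rises. With consecutive arrays averaged 2 fell and 4 rose in nascent RNA, and 14 fell and 3 rose in total RNA. With only spt3_gcn5 and WT in the fit none fell and 2 rose in nascent RNA (5 fell at an unadjusted p below 0.05 by limma), and 7 fell and 3 rose in total RNA. For the fits without an array, with averaging and with these groups alone the share of tested genes is not given. Their counts are therefore not set against all genes.

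Several rises in spt3_gcn5 also passed the threshold within the class. MRPL4, a large-subunit protein near the exit of the polypeptide tunnel, had 0.79 and 0.96 on the nascent spt3_gcn5 arrays, against −1.02, −0.60 and −0.05 in WT. Its change was 1.41 ± 0.22 against all WT arrays and 0.96 against WT 7 and 8 alone, and in total RNA it was 1.12 ± 0.10 and 1.05. RSM22 had 0.25 and 0.21, against −0.78, −0.70 and −0.39, a change of 0.89 ± 0.13 in nascent RNA (0.98 within the class) and 0.73 ± 0.09 in total RNA (0.64 within the class). MRP17, a small-subunit protein with a bacterial counterpart, rose by 0.72 ± 0.16 in nascent RNA (1.08 within the class) and by 0.63 ± 0.17 in total RNA (1.12 within the class). MRPL20 rose by 0.65 ± 0.16 in nascent RNA, or 0.82 within the class. The spt3_gcn5 arrays of these genes lay above every WT array.

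The falls named for spt3_gcn5 were smaller within the class. RSM19, a small-subunit protein with a bacterial counterpart, had −1.5 and −1.56 on the nascent spt3_gcn5 arrays, against −1.25, 0.74 and 1.13 in WT, where the lowest values, −1.25 and −1.04, are those of WT 7 and 8. Its change was −1.73 ± 0.43 against all WT arrays and −0.39 (adjusted p = 0.164) within the class. MRPS8 and MRP2, small-subunit proteins with bacterial counterparts, changed by −1.42 ± 0.39 and −1.35 ± 0.37, and within the class by −0.17 and −0.23, neither past the threshold. MRPL16, a large-subunit protein with a bacterial counterpart, fell by 0.96 on the log2 scale, and by 0.60 within the class. With arrays that overlapped with WT, MRPS12 (−1.57 ± 0.47), MRP21 (−1.12 ± 0.44), MRPL49 (−1.09 ± 0.35), MRPL44 (−1.08 ± 0.38) and RSM27 (−1.08 ± 0.37) were called lower in nascent RNA as well. Their spt3_gcn5 arrays had, in this order, −0.32 and −0.74, −1.05 and −0.93, 0.11 and −0.37, −0.26 and −0.43, and −0.56 and −0.66. On WT 7 and 8 the values were −0.60 and −0.33, −1.22 and −1.15, −0.18 and −0.03, −0.59 and −0.40, and −0.66 and −0.67. These were close to the spt3_gcn5 values or below them. In total RNA MRPS12, the counterpart of a protein of the bacterial decoding centre, had −0.58 and −0.74, against −0.11, 1.79 and 2.09 in WT, a change of −1.93 ± 0.38 and of −0.63 within the class. MRPS12 and RSM19 lie next to each other in tandem, the one such pair among the 66. MRPL49 (−1.55 ± 0.40), MRPS8 (−1.53 ± 0.35) and MRP2 (−1.37 ± 0.23) also lay below WT on both arrays, with −0.23, −0.37 and −0.74 within the class; of these MRPL49 did not pass the threshold there. MRP21, with overlapping arrays, changed by −1.44 ± 0.37, and had −1.43 and −1.06 in spt3_gcn5 against −0.95 and −1.08 on WT 7 and 8.

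**Figure D3:**
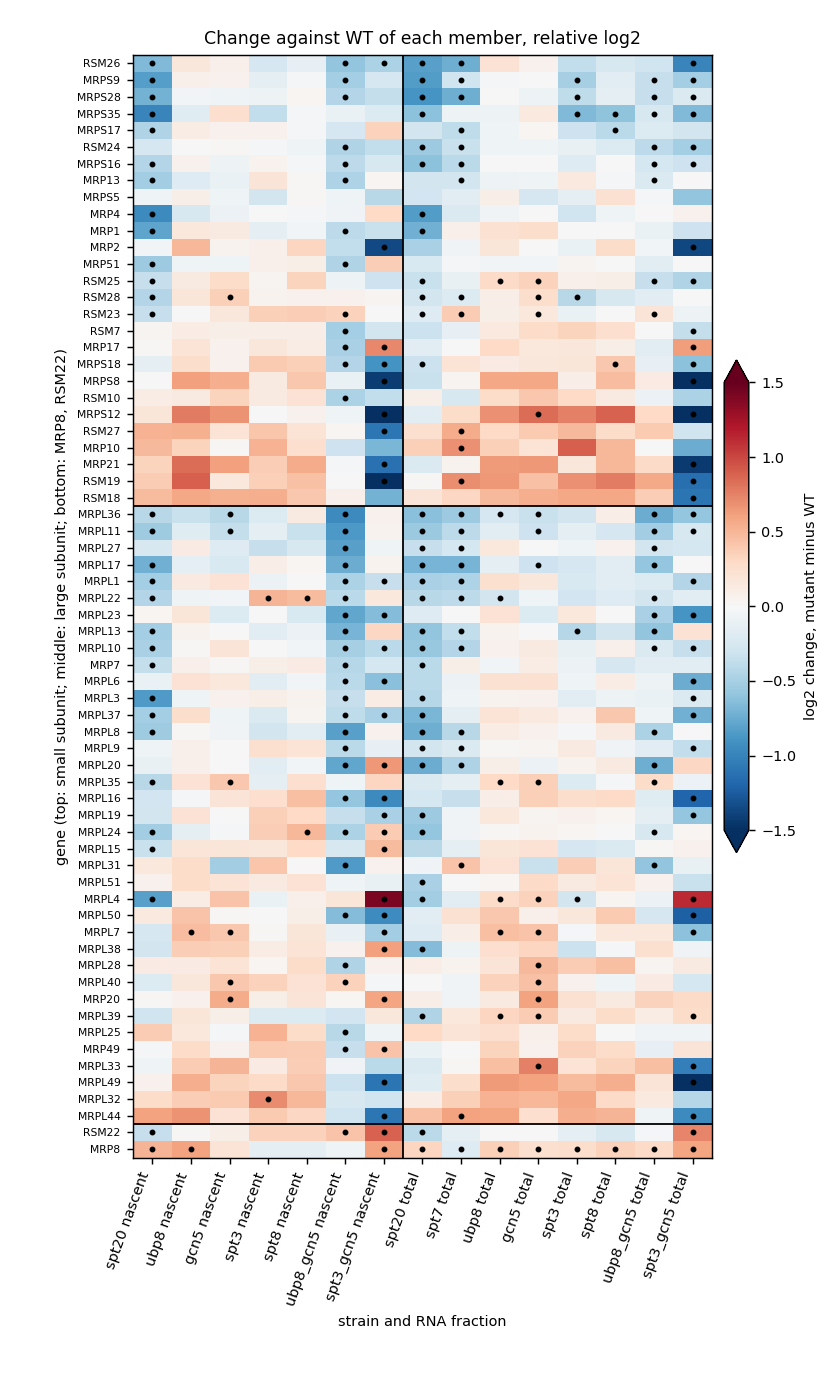
Log2 change, mutant minus WT (all 6 WT arrays), of each of the 66 genes (rows; small subunit on top, large subunit in the middle, RSM22 and MRP8 at the bottom) in each strain and fraction (columns); dots mark adjusted p below 0.05 and the colour scale ends at 1.5 either way. The spt20 columns hold 29 and 33 falls, and the row of MRP8 differs from the others by its rises. The nascent ubp8_gcn5 column shows the deposited values.

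In nascent RNA of the single mutants ubp8, gcn5, spt3 and spt8 few members changed. In nascent ubp8, 2 members rose and none fell, where 6.63% of tested genes rose and 7.1% fell. The 2 were MRP8, with 2.62, 2.53, 2.63 and 2.71 against 1.69, 2.09 and 2.26 in WT (0.60 ± 0.11), and MRPL7, a large-subunit protein with a bacterial counterpart, whose arrays overlapped with WT (0.46 ± 0.13). MRPL7 had 1.13, 1.17, 1.16 and 1.31 in ubp8, against means of 0.96 on WT 3 to 6 and 0.29 on WT 7 and 8. In nascent gcn5, 5 rose and 2 fell, where 20.3% of tested genes were called, 8.32% as rises and 12% as falls. MRP20, a large-subunit protein at the exit of the tunnel, had 0.52, 0.61, 0.45 and 0.59, against −0.27, −0.11 and 0.29, a change of 0.56 ± 0.10 (adjusted p = 0.000357). MRPL35 (0.40 ± 0.12) and RSM28, a mitochondria-specific small-subunit protein (0.36 ± 0.10), were also above every WT array in gcn5, and MRPL36 (−0.42 ± 0.13) and MRPL11 (−0.36 ± 0.12) fell with arrays that overlapped with WT. In nascent spt3 and spt8, 2 members each rose and none fell, where 4.75% and 3.38% of tested genes rose and 8.71% and 9.4% fell.

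MRPL22, a large-subunit protein with a bacterial counterpart, rose in both spt3 and spt8. It had 1.42 and 1.21 on the nascent spt3 arrays and 1.29 and 1.28 on the spt8 arrays, against 0.49, 0.80 and 1.01 in WT, changes of 0.51 ± 0.13 and 0.48 ± 0.13. No array of these strains overlapped with WT. MRPL32 rose in spt3 (0.71 ± 0.24, or 0.39 against WT 3 to 6) and MRPL24 in spt8 (0.50 ± 0.14), both large-subunit proteins with bacterial counterparts. At an unadjusted p below 0.05 the limma fit gave 2 falls among the members in ubp8, 3 in spt3 and 1 in spt8.

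These small counts moved with single arrays. For the fits without 1 array the share of tested genes is not given, so their counts are not set against all genes. In nascent RNA 1 member was called in ubp8 without any 1 of the ubp8 arrays or without WT 7 or 8, 5 without WT 4 or without WT 5, and 10 without WT 6. In gcn5 13 were called without WT 6 and 4 without gcn5 array 2 or array 3. In spt3 8 were called without WT 6, 1 without WT 3, 7 or 8 or spt3 array 2, and none without spt3 array 1; in spt8 8 were called without WT 6 and none without either spt8 array. With the class as a block 4 rose and 8 fell in gcn5, 5 and 7 in spt3, and 5 and 3 in spt8, where 14.5%, 13% and 12.1% of tested genes rose and 22.4%, 23.2% and 31.1% fell. With quantile normalization 9 members rose and none fell in gcn5, 7 rose in spt3 and 9 rose in spt8, where 21.4%, 12.6% and 8.74% of tested genes were called. With only the mutant and WT in the fit, and likewise with consecutive arrays averaged, 1 member was called in gcn5 and none in ubp8, spt3 or spt8. At an unadjusted p below 0.05 these limma fits gave 2, 1 and 3 members in ubp8, spt3 and spt8 alone, and 1, 2 and 3 with averaging.

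In total RNA most calls were rises in ubp8 and gcn5 and falls in spt3, but few or none remained in fits with fewer arrays. With only the mutant and WT in the fit no member was called by limma in ubp8, gcn5, spt3 or spt8 (4, 12, 5 and 3 at an unadjusted p below 0.05), and with consecutive arrays averaged 0, 4, 2 and 0 were (5, 11, 8 and 4 at an unadjusted p below 0.05). In ubp8 6 members rose and 2 fell (25.3% of tested genes were called, 10.9% as rises and 14.3% as falls), and in gcn5 13 rose and 3 fell (17.2% and 19.8%). MRPL35 had 0.74, 0.85, 0.64 and 0.82 in ubp8 and 0.68, 1.04, 0.83 and 0.77 in gcn5, against 0.28, 0.52 and 0.62 in WT, changes of 0.30 ± 0.08 and 0.36 ± 0.08. MRPL4 rose by 0.27 ± 0.08 in ubp8 and 0.35 ± 0.08 in gcn5, and MRP8 by 0.36 ± 0.07 in ubp8; all arrays of these lay above WT. With overlapping arrays MRPL7 (0.45 ± 0.14) was called higher in ubp8, and MRPS12 (0.84 ± 0.30), MRPL33 (0.76 ± 0.19), MRP20 (0.60 ± 0.14) and MRPL28 (0.49 ± 0.14) in gcn5. The mutant arrays of these genes ran, in this order, from 1.18 to 1.38, 2.01 to 2.21, 1.64 to 2.13, 0.48 to 0.66 and 0.78 to 0.94. The means of WT 3 to 6 were 1.10, 1.91, 1.46, 0.24 and 0.61. Those of WT 7 and 8 were 0.26, −0.02, 0.40, −0.53 and −0.12. In spt3 1 member rose and 6 fell (15.3% of tested genes rose and 12.1% fell), and in spt8 2 rose and 2 fell (11.6% and 5.12%).

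MRPS35, which fell furthest in nascent spt20, also fell furthest in total RNA of spt3 and spt8. It had −0.97 and −0.82 in spt3 and −0.77 and −0.90 in spt8, against −0.40, −0.23 and −0.05 in WT, changes of −0.66 ± 0.10 (adjusted p = 2.7e-05) and −0.60 ± 0.10 (adjusted p = 0.000281). The 2 arrays of each strain lay below all 6 WT arrays. MRPS9 (−0.50 ± 0.08), MRPL13 (−0.43 ± 0.11) and RSM28 (−0.42 ± 0.10) also fell in spt3, and MRPS17, a small-subunit protein with a bacterial counterpart, in spt8 (−0.41 ± 0.14). MRPS18, of the same kind, rose in spt8 by 0.40 ± 0.13, or by 0.22 against WT 3 to 6.

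Single arrays moved these counts too. Here as well the share of tested genes in the fits without 1 array is not given. In ubp8 19 members were called without WT 4, 16 without WT 5, 21 without WT 6, and 4 or 5 without ubp8 array 2, 3 or 4 or without WT 7 or 8. In gcn5 26 and 27 were called without WT 4 and WT 6. In spt3 14 and 11 were called without those arrays and 4 without either spt3 array, and in spt8 8 and 7 without them and 1 without either spt8 array. With the class as a block 11 rose and 14 fell in gcn5, 3 and 19 in spt3, and 4 and 12 in spt8, where 26.9%, 28.5% and 27.9% of tested genes rose and 28.2%, 18.4% and 12.6% fell. With quantile normalization 9 rose and 1 fell in ubp8, 7 fell and none rose in spt3, and 3 fell and none rose in spt8, where 26.8%, 22.6% and 6.63% of tested genes were called.

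The members called the same way in the most of the 15 comparisons with WT were MRP8, MRPL36, MRPL11, MRPL10, MRPS9 and MRPS28. MRPL36 fell in 9 and MRPL11 in 8, and MRPL10, a large-subunit protein with a bacterial counterpart, MRPS9 and MRPS28 fell in 7 each. Because the comparisons share WT arrays, these counts are not independent of each other. They include nascent ubp8_gcn5 as deposited, where all of these falling members had the larger dividing constant. MRPL11 had 0.68, 0.65, 0.67 and 0.47 in nascent spt20, against 0.72, 1.20 and 1.47 in WT. In nascent ubp8_gcn5 it had 0.31, 0.33, 0.19 and 0.32 as deposited and 0.56, 0.59, 0.46 and 0.59 with the constants undone. In total RNA it had 0.58 and 0.70 in spt20, 0.77, 0.87, 0.86 and 0.72 in spt7 and 0.67, 0.72, 0.51 and 0.81 in ubp8_gcn5, against 0.99, 1.23 and 1.31 in WT. All of these strains lay below WT on every array, and the total RNA changes were −0.56 ± 0.09, −0.39 ± 0.07 and −0.52 ± 0.07.

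MRPL10 separated spt20 and spt7 from WT in total RNA. There it had 0.67 and 0.61 in spt20 and 0.73, 0.76, 0.86 and 0.73 in spt7, against 0.89, 1.20 and 1.51 in WT, changes of −0.57 ± 0.11 and −0.44 ± 0.09. Its total level in ubp8_gcn5, 0.97, 0.92, 0.98 and 1.07, overlapped with WT, with a change of −0.22 ± 0.09, or −0.35 against WT 3 to 6. MRPS5, a small-subunit protein with a bacterial counterpart, was the 1 member called in none of the comparisons against all WT arrays; with the class as a block it fell in 4.

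MRP8 differed from the members above in its direction. It rose in 10 of the 15 comparisons with WT and fell in 1, spt7 total RNA. In total RNA it had 2.93 and 2.76 in spt3_gcn5, 2.57 and 2.59 in spt20, 2.59, 2.57, 2.70 and 2.63 in ubp8 and 2.62, 2.49, 2.47 and 2.62 in ubp8_gcn5, against 2.12, 2.24 and 2.41 in WT. The 4 spt7 arrays, at 2.05, 2.16, 1.97 and 2.09, overlapped with the low end of WT (−0.19 ± 0.07, adjusted p = 0.0243), and under quantile normalization that change was 0.05, with the opposite sign and past no threshold. In nascent ubp8_gcn5 its change was −0.06 ± 0.11 as centred on the median and 0.36 under quantile normalization, and its rises in spt3 and spt8 total RNA did not pass the threshold under quantile normalization. RSM22, the other member that is not a plain ribosomal protein, rose in spt3_gcn5 and in nascent ubp8_gcn5 (0.43 ± 0.10, with arrays that overlapped with WT, and 0.26 with the constants undone). It fell in spt20, by 0.35 in nascent and by 0.41 in total RNA on the log2 scale.

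**Figure D4:**
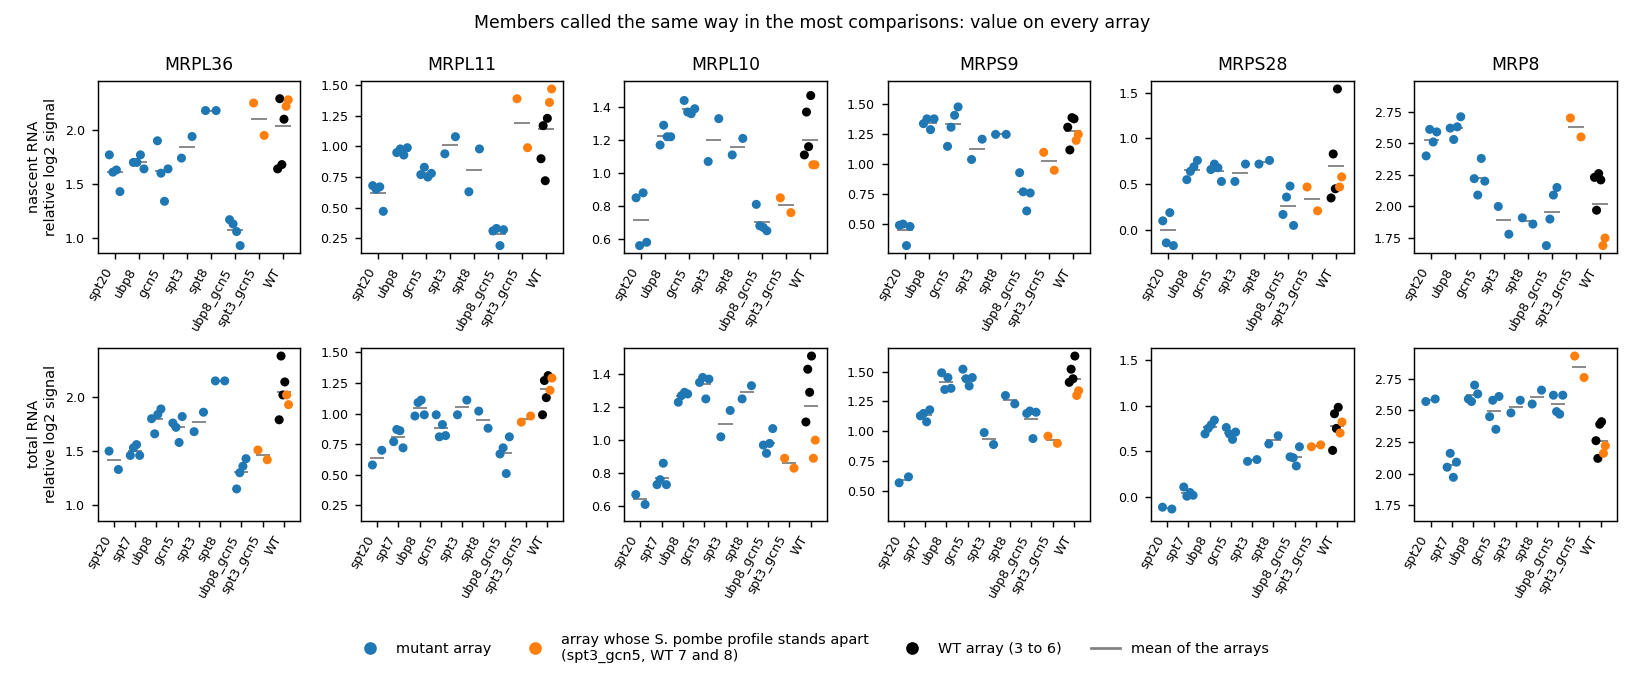
Relative log2 signal (vertical axis, one scale per gene) of MRPL36, MRPL11, MRPL10, MRPS9, MRPS28 and MRP8 on every array, by strain, in nascent (top) and total RNA (bottom); points are arrays (orange for spt3_gcn5 and WT 7 and 8) and lines group means. For MRPS9 the spt20 arrays, at 0.32 to 0.50 in nascent RNA, lie below all others, the nearest of which is ubp8_gcn5 array 3 at 0.61. Nascent ubp8_gcn5 values are shown as deposited. For MRP8 most mutants in total RNA lie above WT, whose arrays span 2.12 to 2.41.

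Members with and without a bacterial counterpart gave these counts. Of 24 mitochondria-specific members 13 fell in nascent spt20, 14 in total spt20, 8 in spt7 and 9 in ubp8_gcn5 total RNA, against 15, 18, 11 and 10 of the 40 members with a bacterial counterpart. In spt3_gcn5 total RNA 7 mitochondria-specific members fell, against 24 with a bacterial counterpart, with median changes of −0.17 and −0.43. The median change in total RNA was −0.29 for the small and −0.41 for the large subunit in spt20, −0.08 and −0.06 in spt7, and −0.10 and −0.12 in ubp8_gcn5. None of these differences between lists was tested.

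The coding length of the members, with a median of 706.5 bases in RefSeq, moved with the difference between the WT arrays. WT 7 and 8 minus WT 3 to 6 ran between −2.25 and 0.96 over the members in nascent RNA and between −1.98 and 0.80 in total RNA. The median difference was −0.73 for the 33 shorter and −0.08 for the 33 longer members in nascent RNA, and −0.86 and −0.23 in total RNA. Across the 66 members the rank correlation of this difference with coding length was 0.66 in nascent and 0.61 in total RNA, against 0.57 and 0.64 across the 4086 tested genes, as a description over genes that share the same 6 arrays. The nascent change in spt20 had a rank correlation with length of −0.64 over the members against all WT arrays and of −0.36 against WT 3 to 6; in total RNA these were −0.32 and 0.05. What part length has in these differences was not tested.

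**Figure D5:**
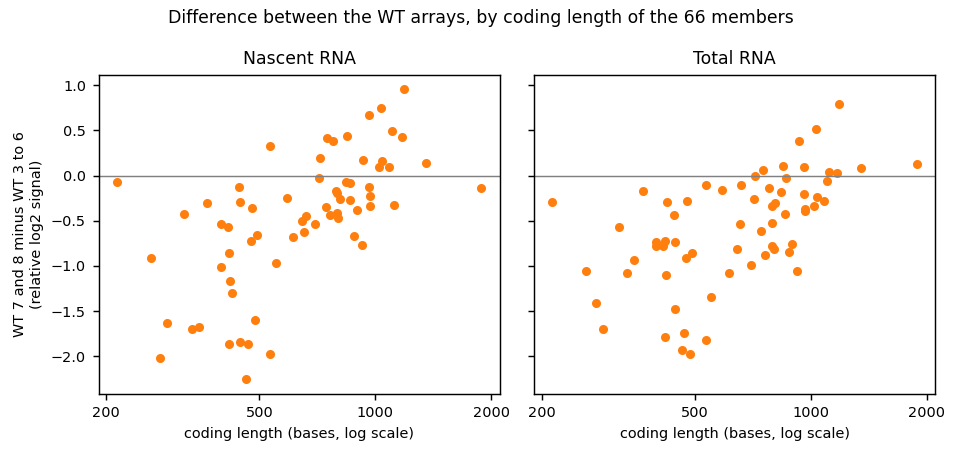
Difference in relative log2 signal between WT arrays 7 and 8 and WT arrays 3 to 6 (vertical axis) against coding length in bases (horizontal axis, log scale) for the 66 genes in nascent (left) and total RNA (right); each point is a gene. Shorter genes lie lower, with medians of −0.73 and −0.08 in the shorter and longer 33 in nascent RNA.

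Other genes of mitochondrial gene expression gave the following counts. Of 12 mitochondrial ribosomal protein genes under other names, such as NAM9 and IMG1, 4 fell in nascent spt20, 6 in total spt20, 5 in spt7, 1 in ubp8_gcn5 total RNA and 6 in spt3_gcn5 total RNA, and none rose in these. Of 22 genes of translation factors and activators, such as the elongation factor gene TUF1 and the COX2 activator gene PET111, 14 were bright enough to be tested in total RNA, where 4 fell and 3 rose in spt20 and 2 fell and 3 rose in spt7. Of 16 genes for mitochondrial aminoacyl-tRNA synthetases and the amidotransferase, 10 were tested, and 3 fell and 2 rose in total spt20 and 1 and 2 in spt7. Of 34 nuclear genes for respiratory chain and ATP synthase subunits, 6 fell and 2 rose in total spt20, 12 and 1 in spt7, and 4 and 5 in ubp8_gcn5. In spt3_gcn5 24 of these fell and 2 rose in total RNA, with a median change of −0.99. Of 129 cytosolic ribosomal protein genes 81 fell and none rose in total spt20, with a median of −0.36, while 63 rose in spt3 and 87 in spt8 and none fell in either. The falls in total spt20 were 50.0%, 28.6%, 30.0%, 17.6% and 62.8% of the tested genes of these lists, in the order given. In spt7 they were 41.7%, 14.3%, 10.0%, 35.3% and 25.6%. These counts moved with the class as a block: in total RNA 11 of the 12 ribosomal protein genes under other names fell in spt20, 10 in spt7, 6 in ubp8_gcn5 and 5 in spt3_gcn5, where 2 rose. Of the respiratory genes 24 fell and 3 rose in spt20, 25 and 2 in spt7, 12 and 7 in ubp8_gcn5, and 22 and 2 in spt3_gcn5. Of the translation factor genes 5 fell and 3 rose in spt20 and 2 and 5 in spt7, and of the synthetase genes 3 and 2 in spt20 and 1 and 5 in spt7. Of the cytosolic ribosomal protein genes 105 fell in spt20, and 93 rose in spt3 and 113 in spt8.

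In WT the level of MRP8 alone was called different between the fractions, lower in nascent RNA by 0.24 ± 0.08 (adjusted p = 0.0379), where 13.6% of tested genes were lower and 1.47% higher; with the class as a block no member was called by limma (8 at an unadjusted p below 0.05). Without nascent WT 7 or 8, or total WT 3, 5 or 6, no member was called either, while 2 were without nascent WT 5, 4 without nascent WT 6 and 3 without total WT 7. The share of tested genes is not given for any fit without 1 array in this paragraph. With the replicate number, by which nascent and total arrays of WT moved together, as a block 1 member was higher and 5 were lower in nascent RNA, where 33.2% of tested genes were called. The change against WT was then compared between the fractions. In spt20, ubp8, gcn5, ubp8_gcn5 and spt3_gcn5 no member differed by limma, where 0.0%, 0.0%, 0.0%, 0.245% and 0.269% of tested genes differed; at an unadjusted p below 0.05, 3, 0, 0, 13 and 8 members did. In ubp8_gcn5 1 member differed without nascent WT 6, nascent ubp8_gcn5 array 4, total WT 4 or total WT 6. There 16 differed with the class as a block, where 23.8% of tested genes had a lower and 4.11% a higher change in nascent RNA. With the replicate number as a block 25 members differed in ubp8_gcn5 (24 with the lower change in nascent RNA) and 6 in spt3_gcn5, where 20.9% and 5.04% of tested genes did, and none in spt20, ubp8 and gcn5 (2, 1 and 3 at an unadjusted p below 0.05). With the constants undone no member differed in ubp8_gcn5 by limma, with or without the class as a block (1 at an unadjusted p below 0.05 in each); the replicate block was not run on those values.

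MRPL22 was the member whose change differed most between fractions in spt3 and spt8. In spt3 it had 1.42 and 1.21 in nascent and 0.50 and 0.72 in total RNA, and in spt8 1.29 and 1.28 in nascent and 0.69 and 0.73 in total RNA, against WT medians of 0.80 and 0.92. The nascent change exceeded the total change by 0.79 ± 0.17 in spt3 (adjusted p = 0.0112) and by 0.67 ± 0.17 in spt8 (adjusted p = 0.0149). It was the 1 member called in spt3, where 0.759% of tested genes were called. In spt8 RSM22 (0.59 ± 0.15) and MRPL24 (0.50 ± 0.17) were called as well, where 9.47% of tested genes were. Without spt3 nascent array 1 or either spt3 total array no member was called in spt3, and 2 were without nascent WT 6. Without any 1 of the 4 spt8 arrays none was called in spt8, and 5 were without nascent WT 7 or 8. The share of tested genes in these fits without 1 array is not given. With the class as a block 10 members were called in spt3 and 12 in spt8, where 31.0% and 44.9% of tested genes were, and with the replicate number as a block 5 and 10, where 10.8% and 32.8% were.

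Set against the S. pombe genes of the spike-in instead of the S. cerevisiae median, the members moved with the whole transcriptome. In nascent RNA 65 members were lower in spt20, 61 in spt3, 66 in ubp8_gcn5, 66 in spt3_gcn5 and 5 in gcn5, where 83.2%, 90.2%, 98.1%, 99.4% and 27.2% of tested genes were lower. The members' median spike-scaled change in nascent RNA was −1.32 in spt20, −1.04 in spt3, −1.95 in ubp8_gcn5 and −2.89 in spt3_gcn5, against −1.04, −1.15, −1.73 and −2.73 for all tested genes. The nascent ubp8_gcn5 values here are as deposited, with S. cerevisiae signals divided by 1.85 or 2.4975. Division by these constants lowers the signals on this scale. No spike-scaled result with the constants undone is given, and what part they have in that fall was not tested. In total RNA 41 members were lower in spt20, 30 in spt7, 14 in ubp8_gcn5 and 66 in spt3_gcn5, where 47.8%, 53.5%, 32.6% and 94.5% of tested genes were lower. The median spike-scaled changes in total RNA were −0.81, −0.53, −0.33 and −1.93, against −0.55, −0.50, −0.28 and −1.64 for all tested genes. In spt8 16 members were higher in total RNA, where 52.8% of tested genes were. The spike-scaled counts are against all WT arrays, and none with the class as a block is given. The members' spike-scaled median in total RNA was 1.09 and 1.11 on WT 7 and 8. On WT 3 to 6 it ran from 2.11 to 2.98. The spt8 arrays, at 2.77 and 2.76, lay within that range. The spt3_gcn5 arrays, at −0.06 and 0.09, lay below WT 7 and 8 as well. On this scale fewer S. cerevisiae cells and less RNA per cell cannot be told apart. The rises of MRPL4, RSM22 and MRP17 in spt3_gcn5 are relative to the other genes of the array, since all 66 members were lower there on the spike-in scale.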

How the data were processed

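Affymetrix yeast arrays were hybridised with nascent or total RNA of S. cerevisiae cultures mixed 3 to 1 with S. pombe cells, per the labels' protocols. The deposited values are linear intensities per probe set, for which the submitters' processing notes name Affymetrix Expression Console 1.4.1. How the authors scaled these intensities is not stated in the labels; the mean of an array's values, trimmed by 2% at each end, was within 1 of 100 on 58 of 68 arrays. The table holds 10928 probe sets, 5498 of S. cerevisiae and 1746 of S. pombe genes; 3683 have no gene name and 1 has several genes.

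All 66 symbols were those of RefSeq. From each log2 intensity the array's own median was subtracted, computed over the 5449 S. cerevisiae genes with the brightest probe set of a gene. The dimmest 25% were left out, which left 4086 genes. Differences were tested with limma 3.58.1 (R 4.3.3; lmFit and eBayes, Benjamini-Hochberg over all tested genes) in 28 nascent arrays, 30 total arrays or all 58. Python 3.11.15 with pandas 2.3.3, numpy 2.4.6, matplotlib 3.10.9 and scipy 1.17.1 made tables and figures. The number of arrays limits the precision: on simulated data of 4086 genes the nascent fit recovered 25 to 54% of changes of 0.5 on the log2 scale and 74 to 96% of changes of 1, and the total fit 43 to 72% and 80 to 96%.

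Arrays were left out for these reasons. The values of WT total 1 and 2 equal the means of arrays 3 and 4 and of 5 and 6 (tolerance 1e-06), and WT nascent 1 and 2 are such means for S. pombe. In spt7 the order of the S. cerevisiae genes in nascent RNA had no relation to their order in total RNA (rank correlation 0.018 to 0.021, against 0.988 to 0.993 for S. pombe). The chosen rule also leaves out spt20 total 1 and 3.

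The members, gene lists and tests were chosen with earlier results of these data known. The genes named are, for each comparison with WT, up to 4 called rises and 4 called falls, the largest of those with no mutant array inside the range of WT; the largest 2 each way of the other comparisons; those called the same way in the most comparisons, and members singled out in the text after their values were seen (MRPS5, and called members with overlapping arrays). Alternatives were no filter on dim genes, quantile normalization, spike-in scaling, the S. pombe profile class as a block, consecutive arrays averaged, the compared groups alone, the replicate number as a block, the constants undone and each array left out in turn. Averaging joined arrays by number, 1 with 2, 3 with 4, and in WT 5 with 6 and 7 with 8. A strain with arrays 1 and 2 alone kept 1 value. The labels do not say which arrays share a culture. Averaging may therefore have joined separate cultures and left technical spread as the error. Undoing the constants together with the class as a block was added after seeing the data. Same-numbered arrays were checked for pairing. The correlations of their deviations ran from −0.55 to 0.43 in nascent and from −0.18 to 0.17 in total RNA. Of these correlations 4 of 8 in nascent and 3 of 9 in total RNA were over 0.1, which does not settle pairing within a fraction. Between nascent and total RNA they ran from 0.56 to 0.85 in WT and from 0.34 to 0.57 in ubp8, where same-numbered arrays moved together. In the other strains they ran from −0.35 to 0.52, and 4 of 16 were over 0.1. Correlations of differently numbered arrays are not given, and such arrays can share a class, as WT 7 and 8 do. The values therefore do not settle which arrays pair, and the labels do not say which arrays share an extraction.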

Additional observations from a re-analysis of the deposited data

Results flagged for a closer look

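Of 70 groups of arrays checked for a far value, 4 had one, and chance flags about 1 in 20 groups. MRPL11 was low on spt20 nascent array 4, at 0.47. MRPS9 was low on spt20 nascent array 3, at 0.32, and on ubp8_gcn5 total array 3, at 0.94. The members' median was low on ubp8 total array 2, at 1.09.

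The change of a few members against WT differed between nascent and total RNA by the limma test of that difference. The nascent change exceeded the total change for MRPL22 by 0.79 in spt3 and by 0.67 in spt8, for RSM22 by 0.59 in spt8, and for MRPL24 by 0.50 in spt8. None of these was called with consecutive arrays averaged.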

How the results depend on the processing

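All counts here are members called in either direction, and they are not set here against the share of all tested genes in each fit. Leaving out the filter on dim genes changed no count by over 1.5 times. With the class as a block the counts were 12 for gcn5, 12 for spt3, 8 for spt8 and 15 for spt3_gcn5 in nascent RNA, 58 for spt20, 46 for spt7, 25 for gcn5, 22 for spt3, 16 for spt8 and 49 for ubp8_gcn5 in total RNA, 47 and 42 for ubp8_gcn5 against gcn5 and ubp8, 0 for WT nascent against total, and 10, 12 and 16 for the fraction differences of spt3, spt8 and ubp8_gcn5. With the compared groups alone (fewer arrays) they were 19 for spt20, 1 for gcn5, 21 for ubp8_gcn5, 2 for spt3_gcn5 and 0 for ubp8, spt3 and spt8 in nascent RNA, 11 for spt20, 13 for spt7, 9 for ubp8_gcn5, 10 for spt3_gcn5 and 0 for ubp8, gcn5, spt3 and spt8 in total RNA, and 46 and 45 for ubp8_gcn5 against gcn5 and ubp8. With consecutive arrays averaged (fewer samples) they were 17 for spt20, 1 for gcn5, 17 for ubp8_gcn5, 6 for spt3_gcn5 and 0 for ubp8, spt3 and spt8 in nascent RNA, 14 for spt7, 4 for gcn5, 2 for spt3, 11 for ubp8_gcn5, 17 for spt3_gcn5 and 0 for ubp8 and spt8 in total RNA, 0 and 7 against gcn5 and ubp8, and 0 for WT nascent against total and the fraction differences of spt3 and spt8. With quantile normalization 7 were called for spt3, 9 for spt8 and 18 for ubp8_gcn5 in nascent RNA and 3 for WT nascent against total; MRP8 reversed to 0.36 in nascent ubp8_gcn5 and 0.05 in total spt7. With the constants undone 13 were called for nascent ubp8_gcn5. On the spike-in scale 65 were called for spt20, 61 for spt3, 66 for ubp8_gcn5, 66 for spt3_gcn5 and 0 for ubp8 and spt8 in nascent RNA, and 3 for ubp8, 5 for gcn5, 0 for spt3, 16 for spt8, 14 for ubp8_gcn5 and 66 for spt3_gcn5 in total RNA. The nascent ubp8_gcn5 count on that scale was made with the dividing constants kept. With spt20 total arrays 1 and 3 kept in, 10 were called. The replicate number, by which nascent and total arrays moved together in WT and ubp8, was also used as a block. Whether it pairs arrays within a fraction is not settled. With that block 11 were called for spt3, 12 for spt8 and 39 for ubp8_gcn5 in total RNA, 6 for WT nascent against total, and 5, 10, 25 and 6 for the fraction differences of spt3, spt8, ubp8_gcn5 and spt3_gcn5. Except where stated, the cause was not tested.

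Without 1 array at a time the nascent counts ran from 28 to 32 for spt20, 1 to 10 for ubp8, 4 to 13 for gcn5, 0 to 8 for spt3, 0 to 8 for spt8, 31 to 38 for ubp8_gcn5 and 12 to 35 for spt3_gcn5. The total RNA counts ran from 23 to 39 for spt20, 20 to 26 for spt7, 4 to 21 for ubp8, 13 to 27 for gcn5, 4 to 14 for spt3, 1 to 8 for spt8, 17 to 26 for ubp8_gcn5 and 28 to 42 for spt3_gcn5, and from 0 to 4 for WT nascent against total. The fraction differences ran from 0 to 2 for spt3, 0 to 5 for spt8 and 0 to 1 for ubp8_gcn5. Against ubp8 and gcn5, ubp8_gcn5 ran from 17 to 23 and from 12 to 16. Of the named genes' values under the alternatives, 1912 kept their direction and side of the threshold, 158 lost the call, 22 gained it and 2 reversed. Signal over background was not available, so the limit set by dim probes was not measured.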
